A study of Homo sapiens with 2 samples.

Results

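RHEB is a small GTPase of the Ras superfamily that activates mTORC1, the kinase complex that couples growth signals and nutrients to protein synthesis. It is switched off by the TSC complex, in which TSC2 holds the GTPase-activating domain, TSC1 stabilises TSC2, and TBC1D7 binds TSC1. The transcripts followed around this switch were those of RHEB, its paralog RHEBL1, its processed pseudogene RHEBP2, TSC1, TSC2 and TBC1D7. These 6 genes were taken by name from 16424 listed genes, and the family was chosen by the CPM values of the same libraries, which were known beforehand. Their values are therefore a description.

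Cap analysis of gene expression (CAGE) was performed on the human hepatoma line PLC/PRF/5 to look for signals that M2BPGi regulates. M2BPGi is a glycosylated form of Mac-2 binding protein that is measured in serum as a marker of liver fibrosis. Non-treated cells gave 1 library, and cells kept for 6 h with 3 µg/ml M2BPGi gave the other. With 1 library per condition, the differences have no replicate check and no p-value is given. CAGE reads a short tag from the capped 5′ end of an RNA. A transcript gives 1 tag whatever its length, so levels in CPM, the tags of a gene scaled to a fixed library size, can be compared between genes. The libraries held 24040209 tags (non-treated) and 24862941 tags (M2BPGi-treated). With 0 tags, a level of up to 0.125 CPM (non-treated) or 0.121 CPM (M2BPGi-treated) is still possible. Intervals are 95% Clopper-Pearson intervals from the tag numbers and, like these floors, cover counting error only.

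RHEB (ENSG00000106615) had 21.0 CPM without and 110.1 CPM with M2BPGi, from 505 and 2738 tags. The tag level was 5.24-fold higher with M2BPGi, and the interval of the log2 tag ratio ran from 2.25 to 2.53. In bulk RNA, a larger share of cells with the transcript and more transcript per cell cannot be told apart. Among the listed genes RHEB stood at rank 6906 in non-treated cells, and at rank 1759 in M2BPGi-treated cells. After 1 CPM was added to both values as a pseudocount, which understates the change of low genes, its log2 ratio was 2.34. The genes tested were the 13724 whose CPM averaged at least 1 over both libraries, and 7 of them had a higher ratio.

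RHEBP2 (ENSG00000226964), the processed copy, went the other way. It had 7.11 CPM without and 0.24 CPM with M2BPGi, from 171 and 6 tags. Its log2 ratio was -2.71, and 5 of the genes tested were lower. The interval of the log2 tag ratio, from -6.35 to -3.73, was wide because of the 6 tags. RHEBL1 (ENSG00000167550), a paralog that can also activate mTORC1, lay just above the filter on low values, with 1.29 CPM without and 1.01 CPM with M2BPGi. Its 31 and 25 tags gave an interval from -1.18 to 0.45, which included 0. A difference in RHEBL1 within this range could not be resolved at this depth.

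All 6 genes passed the filter on low values. RHEB was at least 2-fold higher, as were 0.240% of the genes tested, and RHEBP2 was at least 2-fold lower, as were 0.430%. Since the genes were selected on these values, nothing is read from these counts. The other members, RHEBL1, TSC1, TSC2 and TBC1D7, had log2 ratios between -0.19 and 0.18, within the range of -0.67 to 0.52 that held 95% of all genes tested.

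**Figure D1:**
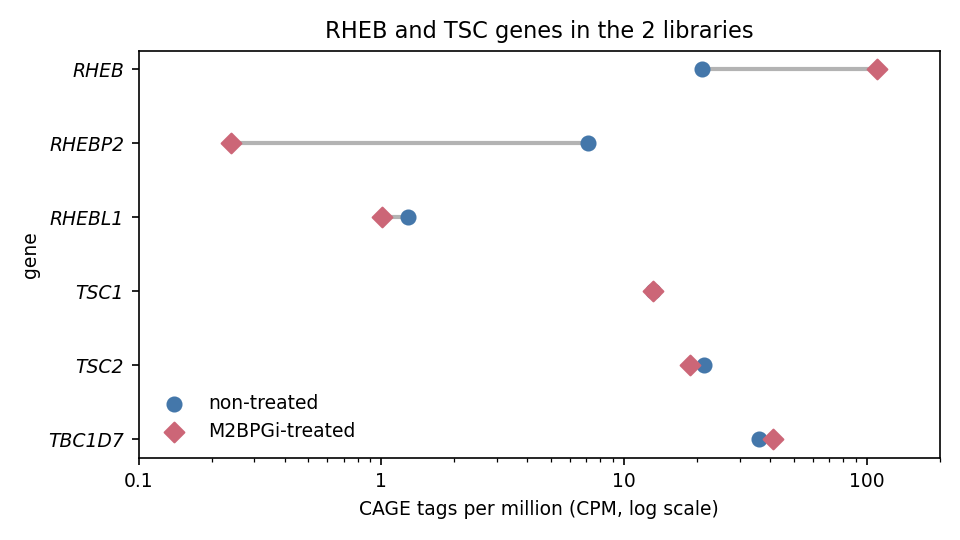
CPM (log scale) of the 6 genes in the non-treated library (circles) and the M2BPGi-treated library (diamonds), with a line joining both values of a gene. RHEB lies at 21.0 and 110.1 CPM and RHEBP2 at 7.11 and 0.24 CPM, while the symbols of TSC1, TSC2 and TBC1D7 lie close together.

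**Figure D2:**
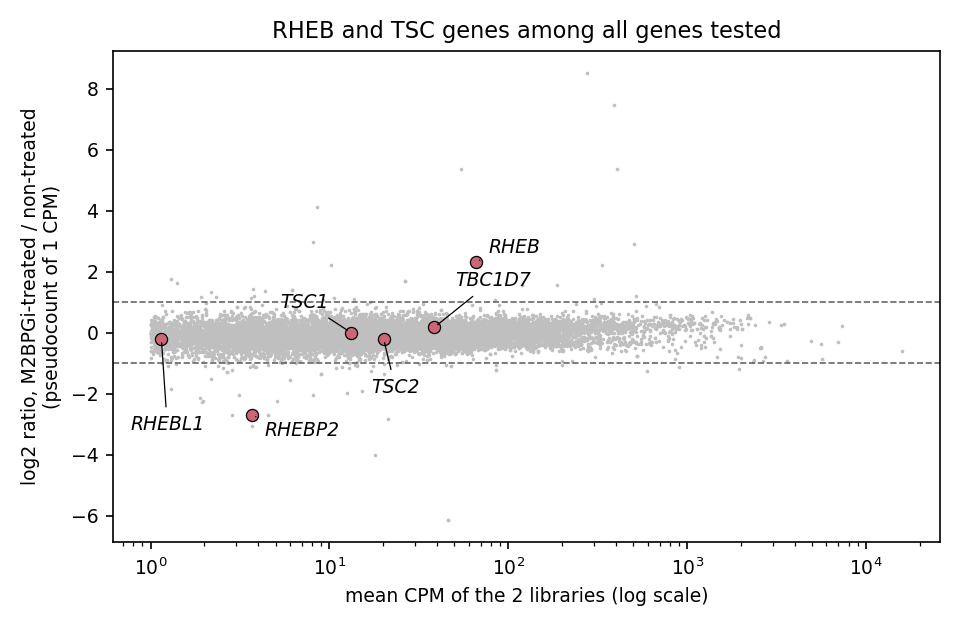
Log2 ratio (M2BPGi-treated over non-treated) against the mean CPM of both libraries (log scale). Grey points are the 13724 genes tested, filled circles the 6 members, and dashed lines mark a 2-fold difference, past which lie RHEB (2.34) and RHEBP2 (-2.71).

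RHEBP2 is nearly identical to the coding sequence of RHEB, so the assignment of tags to either gene is uncertain. How tags that fit several positions were placed is not stated. In the GRCh38 annotation of GENCODE release 29, RHEB lies at chr7:151466012-151520120 on the minus strand and RHEBP2 at chr10:47706203-47706802 on the plus strand. The submitters' processing notes name hg19 for the deposited values, so these positions serve only to identify the genes. A further copy, RHEBP1, lies at chr10:46634911-46635466 on the minus strand and is not among the listed genes. RHEBP3 on chromosome 22 is not listed either.

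The annotated RHEBP2 transcript of 600 nt aligned from the start codon of RHEB onwards, with 98.8% identity over 599 bases and 1 gap. RHEBP1 aligned over 556 bases with 99.1% identity and 0 gaps. The 5 substitutions of RHEBP1 relative to RHEB all occur among the 7 of RHEBP2. Counted from the A of the start codon, they are C12A, C169T, G354A, G471T and A489G, and RHEBP2 also has T571C and C595G. The first 60 coding bases are shown because they hold the first substitution, in capitals.
RHEB: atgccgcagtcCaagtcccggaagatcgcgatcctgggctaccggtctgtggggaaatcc
RHEBP1: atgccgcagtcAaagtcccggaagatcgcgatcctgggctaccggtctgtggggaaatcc
RHEBP2: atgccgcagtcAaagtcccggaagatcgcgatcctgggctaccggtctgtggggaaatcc

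Between this base and the next substitution, the copies match RHEB without a break. Bases 141 to 200 are shown because C169T turns codon 57 of RHEB, caa, into the stop codon taa in both copies. The capital marks that base.
RHEB: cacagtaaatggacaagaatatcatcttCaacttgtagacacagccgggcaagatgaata
RHEBP1: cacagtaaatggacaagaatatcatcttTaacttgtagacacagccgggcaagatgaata
RHEBP2: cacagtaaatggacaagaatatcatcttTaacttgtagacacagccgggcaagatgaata

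RHEBP1 and RHEBP2 are annotated from the start codon on and lack the 5′ untranslated region of RHEB, which is 413 nt long in its principal transcript of 2075 nt. Of the 2051 stretches of 25 bases in this transcript, 458 occur in annotated transcripts of other genes, and 0 of these lie before the start codon. The 5 genes that share them are RHEBP1, RHEBP2, RHEBP3, SHLD2P1 and the long non-coding RNA AL356056.3, the last on the opposite strand. A tag from the annotated 5′ end of RHEB would thus match 0 other annotated transcripts over 25 bases. This did not hold for each member. Of the first 100 stretches, 100 were shared with other annotated transcripts for RHEBP2 and 100 for TSC1. For TBC1D7 there were 9, and for RHEB, RHEBL1 and TSC2 there were 0. For TSC1 they lie in bases 1 to 198, which also occur in GFI1B, on the opposite strand. GFI1B overlaps TSC1 in the annotation and is not among the listed genes. Unlike the match of RHEBP2, this one therefore need not be a second position in the genome. Over its whole length, RHEBP2 shared 555 of 576 stretches. The deposited values are per gene and do not show where within a gene the tags began. The genome outside annotated transcripts was not searched.

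**Figure D3:**
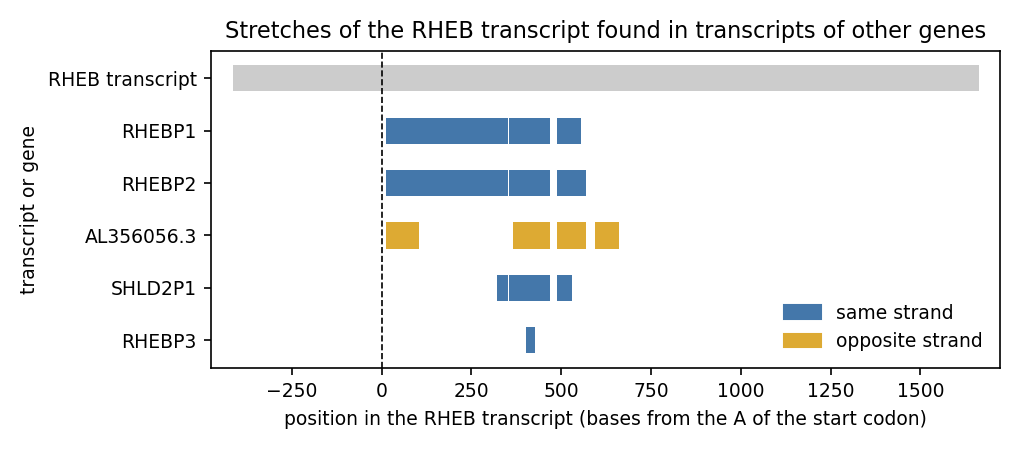
Position in the RHEB transcript, in bases from the A of the start codon (dashed line), of stretches of at least 25 bases that also occur in annotated transcripts of other genes, on the same strand (blue) or the opposite strand (yellow). The 413 nt before the start codon hold 0 such stretches.

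RHEBP2 lies inside a larger pseudogene on the same strand, named FAM35DP in the deposited values and SHLD2P3 in GENCODE. Both were listed with identical values, 7.11 CPM without and 0.24 CPM with M2BPGi. The difference seen for RHEBP2 therefore cannot be told apart from one of FAM35DP. Such ties were common, since 1926 of the genes tested (14.0%) had the same pair of values as another gene. When the tags of RHEB and RHEBP2 were summed, the level was 28.1 CPM without and 110.4 CPM with M2BPGi, with an interval of the log2 tag ratio from 1.85 to 2.10. The difference between the libraries was -6.87 CPM for RHEBP2 and 89.1 CPM for RHEB. RHEB held 74.7% of the summed tags in non-treated cells (interval 71.2 to 77.9%) and 99.8% in M2BPGi-treated cells (99.5 to 99.9%).

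TSC1 (ENSG00000165699, chromosome 9) had 13.14 CPM without and 13.23 CPM with M2BPGi. The interval of its log2 tag ratio, from -0.22 to 0.24, included 0. TSC2 (ENSG00000103197, chromosome 16) had 21.5 and 18.7 CPM, with an interval from -0.38 to -0.02. TBC1D7 (ENSG00000145979, chromosome 6) had 36.1 and 41.1 CPM, with an interval from 0.06 to 0.32. The intervals of TSC2, which was lower, and TBC1D7, which was higher, did not include 0, but the spread between cultures is unknown. When the libraries were rescaled by a trimmed mean of M values, the interval of TSC2 ran from -0.33 to 0.04 and included 0, while that of TBC1D7 ran from 0.11 to 0.37. The 3 genes together had 70.7 CPM without and 73.0 CPM with M2BPGi, with an interval from -0.05 to 0.14.

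In non-treated cells the order of levels was TBC1D7, TSC2, RHEB, TSC1, RHEBP2 and RHEBL1. RHEB and TSC2 did not differ there beyond counting error, with 0.979 RHEB tags per TSC2 tag (interval 0.864 to 1.11). In M2BPGi-treated cells RHEB came before TBC1D7, TSC2 and TSC1, and RHEBP2 was last. There were then 5.89 RHEB tags per TSC2 tag (interval 5.33 to 6.51). Set against the summed tags of TSC1, TSC2 and TBC1D7, RHEB went from 0.297 (interval 0.268 to 0.328) to 1.51 (1.42 to 1.60).

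Ratios between genes of the same library do not depend on its scaling. For the subunits of the TSC complex, 3 such ratios were compared. TBC1D7 had 1.68 tags per TSC2 tag in non-treated cells (interval 1.51 to 1.88) and 2.20 in M2BPGi-treated cells (1.97 to 2.46), and these intervals do not overlap. TSC2 had 1.63 tags per TSC1 tag in non-treated cells (interval 1.42 to 1.88) and 1.41 in M2BPGi-treated cells (1.22 to 1.63), and TBC1D7 had 2.75 (2.41 to 3.13) and 3.11 (2.74 to 3.53) per TSC1 tag. The intervals of the last pairs overlap. All of these intervals cover counting error only, and the spread between cultures is unknown.

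**Figure D4:**
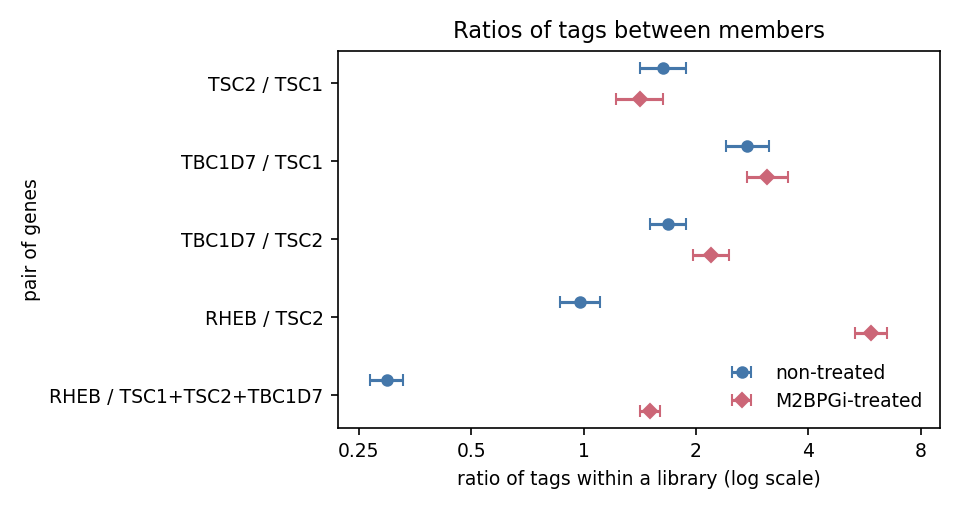
Ratio of the tags of one gene to those of another within the non-treated library (circles) and the M2BPGi-treated library (diamonds), on a log scale, with 95% Clopper-Pearson intervals as bars. TBC1D7 per TSC2 goes from 1.68 to 2.20 and RHEB per TSC2 from 0.979 to 5.89.

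Genes that overlap or lie within 10 kb of the members in GENCODE were also read. NTHL1, a DNA repair glycosylase gene that overlaps the start of TSC2 on the opposite strand, had 30.7 CPM without and 37.4 CPM with M2BPGi. PKD1, which overlaps the other end of TSC2 on the opposite strand, had 38.0 and 32.8 CPM, and SLC9A3R2, on the same strand, had 69.5 and 82.5 CPM. The deposited names carry a strand, but whether tags were counted by strand is not stated, so the tags of overlapping genes are uncertain. KMT2D, next to RHEBL1 and named MLL2 in the deposited values, had 10.40 and 9.25 CPM. SPACA9, next to TSC1 and named C9orf9, had 3.66 and 4.14 CPM. For RHEB and TBC1D7, 0 neighbours were listed. These 5 neighbours had log2 ratios between -0.21 and 0.28, inside the range of most genes tested.

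Promoter windows from RefSeq (GRCh38.p14), of 250 bases before a start, were found for 4 of the 6 genes, RHEB, TSC1, TSC2 and TBC1D7, with 2 starts for TSC2. GENCODE places the gene ends differently, so that 225 bases of the RHEB window, 46 of the TBC1D7 window and all 250 of each TSC1 and TSC2 window lie inside the annotated gene. Motifs were searched on both strands as letters. CCAAT occurs in the RHEB window 104 and 51 bases before the start, and in 0 of the other windows, whereas 32.0% of all 35116 windows hold it. TGACGT, the core of cAMP response elements, occurs in the RHEB window as its reverse complement 80 bases before the start and in 0 of the others, and in 7.10% of all windows. CACGTG, an E-box, occurs in 1 of the TSC2 windows and in 6.34% of all. GGGCGG occurs in all 5 windows and in 42.6% of all, and TATAAA in 0 of the 5 and in 10.7% of all. A match is a description of the letters and not a binding site.

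The genes whose pair of levels was most like that of each member were sought by the Euclidean distance between log2(CPM + 1) values over both libraries. For RHEB, 0 of the other listed genes lay within a distance of 0.1. The nearest was the histone gene HIST1H2BB at 1.10, with 43.3 CPM without and 81.6 CPM with M2BPGi. RMRP, the RNA component of RNase MRP, and RP11-331F9.10 followed with the same 31.5 and 53.1 CPM, then STX8 with 34.5 and 55.3 CPM and CHAC1 with 44.2 and 70.4 CPM. Each of these 5 genes was higher than RHEB in non-treated cells and lower than RHEB in M2BPGi-treated cells.

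For RHEBP2 the nearest were FAM35DP at a distance of 0, VCX3A at 0.31 and GTF2H2 at 0.36. VCX3A had 7.40 CPM in non-treated cells and 0 tags in M2BPGi-treated cells, and GTF2H2 had 8.65 and 0.48 CPM. The patterns of the TSC complex were common ones. Within a distance of 0.1 there were 102 genes for TSC1, 118 for TSC2 and 87 for TBC1D7. FAM86EP, AC226119.4 and ZW10 were nearest to TSC1, RPRD1B, RIPK1 and LARP1B to TSC2, and NELFB, HOMER3 and ARHGAP18 to TBC1D7.

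RHEB was then set among other Ras family GTPases. Together with RHEB and RHEBL1 there were 22 listed, and RHEB went from rank 14 by CPM in non-treated cells to rank 2 in M2BPGi-treated cells, while RHEBL1 held ranks 21 and 22. Of the 20 others, all tested, 13 were higher and 7 lower, 0 of them at least 2-fold, with a median log2 ratio of 0.14. The median over all genes tested was -0.05, with 42.9% of them higher. RRAS2, a relative of the classical Ras proteins, had 32.5 CPM without and 42.4 CPM with M2BPGi. RAP2B (26.4 and 22.3 CPM) and RASD1 (24.2 and 23.1 CPM) were the lowest of those that averaged at least 10 CPM.

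TBC1D7 belongs to a family of proteins with a TBC domain, most of which act on Rab GTPases. Of 25 other TBC1D genes tested, 12 were higher and 13 lower, with 0 at least 2-fold different. Their median log2 ratio of -0.02 turned positive when the libraries were rescaled and when at least 10 CPM was required. TBC1D7 itself had a log2 ratio of 0.18. TBC1D13 had 13.9 CPM without and 15.5 CPM with M2BPGi and TBC1D16 had 19.6 and 21.7 CPM, while TBC1D8 had 61.5 and 52.7 CPM and TBC1D5 had 94.1 and 84.3 CPM.

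Kinases and other inputs act on the TSC complex, mostly by phosphorylation. Of 17 such genes, 15 were tested, of which 10 were higher and 5 lower, with a median log2 ratio of 0.10. GSK3A, a kinase that phosphorylates TSC2, had 50.7 CPM without and 75.5 CPM with M2BPGi. DDIT4, a stress-induced inhibitor of mTORC1 that acts through the TSC complex, had 41.2 and 60.6 CPM. IKBKB, which phosphorylates TSC1, had 17.1 and 13.6 CPM, and PRKAA1, a catalytic subunit of AMPK, had 53.2 and 48.2 CPM. Of 17 genes for turnover and anchoring of the complex, all were tested, with 11 higher, 6 lower and a median of 0.02. Its outermost members were YWHAB, a 14-3-3 gene, with 439 and 549 CPM, FBXW5 with 88.6 and 105.7 CPM, LAMP2 with 201.7 and 159.6 CPM and MYCBP2 with 14.8 and 11.6 CPM.

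RHEB needs farnesylation and further processing at its carboxyl end to sit on membranes. Of 15 genes for its processing, turnover and binding, 14 were tested, with 7 higher, 7 lower and a median log2 ratio of 0.00. The enzymes that act after the farnesyl transfer were the lowest, ICMT with 57.0 CPM without and 43.0 CPM with M2BPGi and RCE1 with 20.3 and 15.5 CPM. FKBP8 had 132.3 and 166.4 CPM and TPT1 had 692 and 826 CPM. The 5 genes of mTORC1 subunits had a median of 0.06, with 3 higher and 2 lower. MLST8 had 82.5 CPM without and 111.3 CPM with M2BPGi, AKT1S1 had 132.1 and 137.6 CPM, MTOR had 21.2 and 17.9 CPM, and RPTOR had 12.9 and 12.7 CPM.

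Rag GTPases and the Ragulator bring mTORC1 to the lysosome, where RHEB activates it. Of these 9 genes, 7 were higher and 2 lower, with a median log2 ratio of 0.12. RRAGD had 31.7 CPM without and 42.0 CPM with M2BPGi and LAMTOR5 had 111.5 and 139.2 CPM, while RRAGB had 17.8 and 15.4 CPM and RRAGA had 34.1 and 32.8 CPM. In each of these lists, 0 genes were at least 2-fold higher or lower. Over all genes tested these shares were 0.240% and 0.430%, so a count of 0 in lists of this size does not set them apart. The lists were described by counts and medians without a test.

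**Figure D5:**
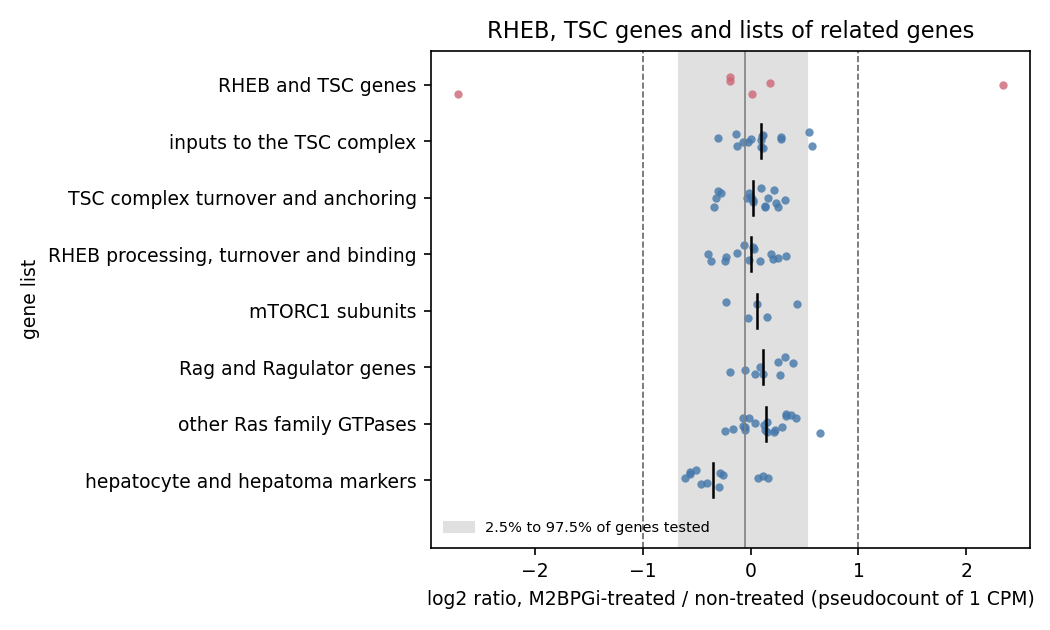
Log2 ratio (M2BPGi-treated over non-treated) for the 6 members (top row) and for the tested genes of 7 lists, 1 point per gene, with black bars at list medians, the grey line at the median of all genes tested (-0.05), grey shading over 95% of all genes tested and dashed lines at a 2-fold difference. RHEB (2.34) and RHEBP2 (-2.71) lie outside the lines, and 0 genes of the lists do.

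Markers of a hepatoma line were found in both libraries, but at very unequal levels. All 12 hepatocyte and hepatoma markers were tested, and 9 were lower and 3 higher with M2BPGi. Their median log2 ratio was -0.35. Their summed level was 5108 CPM without and 3699 CPM with M2BPGi, with FGG the most abundant. ALB (8.82 and 7.04 CPM), APOA1 (4.37 and 4.63 CPM) and TTR (3.62 and 2.49 CPM) were low. They lay below the median listed gene, at 14.87 and 14 CPM, and APOB had 15.6 and 11.06 CPM. FGB had 950.0 and 623 CPM and FGA had 1015 and 687 CPM, while APOA2 had 241 and 261 CPM and HNF4A had 39.1 and 43.8 CPM. Of 10 markers of other liver cells, 4 were listed and 2 tested, neither of them at least 2-fold different. The 4 listed summed to 26.4 and 24.7 CPM, mostly from CD68 with 21.2 and 20.5 CPM, and the leukocyte marker PTPRC had 0 tags in both libraries. The part of these marker levels in the difference of RHEB was not tested.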

How the data were processed

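According to the paper, DNAFORM prepared and sequenced the CAGE libraries and mapped the tags. Tags of ribosomal RNA or with ambiguous bases were removed, and the rest were aligned with BWA. The 5′ ends were grouped with CAGEr. CPM per gene were deposited with 2 decimals. The submitters' processing notes also name HISAT2 and hg19, whereas the methods name a mouse genome. The identifiers are human. Assignment of tags to genes is not stated, so the tags of near-identical copies are uncertain.

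The number of tags behind each CPM was worked out from its steps, with 100% of those above 0 at a whole tag number to within this rounding. By a stricter tolerance of 0.1 tags, less than the 0.120 and 0.124 tags that rounding can add, 87.6% (non-treated) and 94.1% (M2BPGi-treated) of values up to 20 tags were whole. The intervals rest on these numbers, and no test of tags was run. Log2 ratios used a pseudocount of 1 CPM, and genes that averaged at least 1 CPM counted as tested. The members and lists were chosen with earlier results of these data known. From each list, the 2 highest and the 2 lowest genes that averaged at least 10 CPM are named, along with 5 genes nearest to RHEB and 3 nearest to RHEBP2, TSC1, TSC2 and TBC1D7. A gene selected in this way is not reported here. Neighbouring genes, RHEBL1's rank, marker sums, the markers of low level and ties were added after the values were seen. Sequences came from GENCODE release 29 transcripts, aligned locally. Python 3.11.15, scipy 1.17.1 and biopython 1.88 were used, and the scripts were tested on simulated data. Other pseudocounts, filters, scalings, a fold of 1.5 and a sum of RHEB and RHEBP2 were tried.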

Additional observations from a re-analysis of the deposited data

How the results depend on the processing

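No paired analysis was possible because the design holds 1 non-treated and 1 M2BPGi-treated library, and for the same reason no library could be left out. Over the pseudocounts and scalings tried, no member changed direction. RHEBL1 ranged from -0.32 to -0.07, TSC1 from 0.01 to 0.06, TSC2 from -0.20 to -0.14 and TBC1D7 from 0.17 to 0.23. RHEB and RHEBP2 stayed at least 2-fold different in each. The median log2 ratio of all genes, -0.05, set the shift when it was scaled to 0. After a trimmed mean of M values RHEB, TSC1, TSC2 and TBC1D7 were higher by a similar amount, and RHEBL1 (-0.16) and RHEBP2 (-2.70) moved less. The interval of TSC2 included 0 after either rescaling. RHEB was 1.94 when summed with RHEBP2 and 2.15 with a pseudocount of 5 CPM, and RHEBP2 was -4.41 with 0.1 CPM and -1.21 with 5 CPM, as a pseudocount weighs most on low values.

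Genes past the fold numbered 219 higher and 555 lower at 1.5-fold, 19 and 28 among genes averaging at least 10 CPM, of which there were 9464, 53 and 162 with a pseudocount of 0.1 CPM, and 18 and 21 with 5 CPM. The hepatocyte median was -0.46 at an average of at least 10 CPM and -0.27 with a pseudocount of 5 CPM. Of the markers of other liver cells, CD68, with a log2 ratio of -0.046, was counted as higher after either rescaling. Without a filter, COL1A1 (log2 ratio 0.076, mean 0.715 CPM) was counted as higher. The other 186 values stayed within counting error or within 1.5 times the count, including 1 gene for each shared pair of values, an alternative chosen after seeing the data. A planned binomial test of tags was not run. Depth limits RHEBL1 and RHEBP2 most.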
